A study of Mus musculus with 136 samples.

Results

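The interferon response genes described here are 38 genes that cells of mice induce after type I, II or III interferon, taken as every probe annotated to them on the array. Of these, 37 had a probe, *Ifi44* had none, and the 37 genes, of 16593 named on the array, had 57 of the 25697 probes. A probe was tested in a tissue where it was above background (detection p under 0.01) on at least 3 arrays. This held for 43 of the 57 probes in the thyroid, 50 in the spleen, 49 in the lungs, 44 in the liver, 45 in the kidney cortex and 46 in the kidney medulla. In all 6 tissues 31 genes were tested. *Ifit1*, *Oas1a* and *Xaf1* were tested in none, *Mx1* only in the spleen, *Ifi35* in the spleen and lungs, and *Cxcl10* in every tissue but the thyroid.

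Female BALB/c nude mice, which lack most T cells, received 90 kBq 131I or physiological saline into a vein at 9:00, 12:00 or 15:00, and tissues were taken 24 h later. Illumina bead arrays measured 71 samples of 131I mice and 59 of saline mice, with 3 or 4 samples per group of a tissue, and 6 repeat arrays that were averaged with their sample. By their numbers the samples come from 12 131I mice and 10 saline mice, so samples of different tissues can share a mouse. All mice share the nude background. By the methods of the study they were 9 months old and were anesthetized with sodium pentobarbital before they were killed.

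Interferons are secreted proteins that bind receptors on the cell surface and act through Janus kinases. Type I and III interferons bring a complex that holds Stat2 and Irf9 to the interferon-stimulated response element of a promoter, and interferon gamma acts through another element, the gamma-activated sequence. The induced genes include sensors of foreign nucleic acid, antiviral effectors, GTPases that attack vacuoles of pathogens, chemokines that attract lymphocytes, and parts of the antigen presentation machinery. Several are on at a low level in healthy tissue, above all where immune cells are dense.

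The promoters of the genes are shown as background, and a link of their letters to the results below was not tested. Windows of 300 bases, 250 before and 50 after the transcription start, were read from RefSeq (GRCm38.p6) for 30 of the 38 genes. *Dhx58*, *Zbp1*, *Oas2*, *Mx1*, *Mx2*, *Parp14*, *Usp18* and *Iigp1* were not read. The letters GAAANNGAAA or their reverse complement TTTCNNTTTC, the core of the interferon-stimulated response element, were found in 14 of these 30 (46.7%), and in 3.44% of all 32851 windows. The palindromic letters TTCNNNGAA of the gamma-activated sequence were found in 7 (23.3%), and in 8.3% of all windows. Both were found in 3 of the 30 (10%) and in 0.454% of all. The examples follow in the direction of the gene, with the bases of every response element match in capitals, for effectors, GTPases and a chemokine named below. They were taken only from genes with such a match before the start. *Isg15* is from chr4:156200860-156200899 on the minus strand, *Rsad2* from chr12:26456548-26456587 (minus), *Ifit3* from chr19:34583392-34583431 (plus) and *Gbp2* from chr3:142620589-142620628 (plus). *Gbp3* is from chr3:142559990-142560029 (plus), *Igtp* from chr11:58199507-58199546 (plus), *Irgm1* from chr11:48871421-48871459 (minus) and *Cxcl10* from chr5:92349078-92349117 (minus).
Isg15: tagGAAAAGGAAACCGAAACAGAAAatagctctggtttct
Rsad2: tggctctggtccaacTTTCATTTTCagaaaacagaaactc
Ifit3: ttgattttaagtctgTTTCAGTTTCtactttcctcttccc
Gbp2: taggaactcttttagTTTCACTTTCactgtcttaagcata
Gbp3: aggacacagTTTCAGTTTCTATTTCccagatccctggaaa
Igtp: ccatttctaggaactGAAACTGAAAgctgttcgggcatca
Irgm1: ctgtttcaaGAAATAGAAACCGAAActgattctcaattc
Cxcl10: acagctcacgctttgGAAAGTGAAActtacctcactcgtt
A match is a description of the letters and not a measured binding site.

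Between 34.7% and 51.9% of the probes were above background on an array. Some samples had markers of another tissue. In the spleen, 131I 12:00 replicate 1 had proximal tubule and medulla marker means of 10.9 and 12.2 on the log2 scale, against medians over all spleens of 4.50 and 4.54. In the lungs, saline 9:00 replicate 4 had 8.43 and 12.0 for the same markers, against medians of 4.44 and 4.53. One thyroid, 131I 9:00 replicate 2, had a lung marker mean of 9.83, against a median of 4.36. In the thyroid, the salivary gland marker mean was 4.43 in 131I mice and 12.9 in saline mice at 9:00, 12.0 and 7.21 at 12:00, and 8.66 and 5.85 at 15:00. The skeletal muscle marker mean of the thyroid was 10.7 (6.55 to 12.2) in 131I mice and 5.66 (5.10 to 6.08) in saline mice at 9:00, and 7 of its 9 probes were called there. The thyroid follicular cell markers, with means of 4.45 to 4.87 in all groups, were near background throughout, and only 2 of their 6 probes were tested. The repeat array of medulla 131I 9:00 replicate 3 correlated at 0.979 with its own sample and best, at 0.989, with 131I 12:00 replicate 3. With the repeats left out, the medulla median at 9:00 given below was 0.64, and with the repeats counted as replicates it was 0.49. In bulk tissue, a smaller number of cells of a type and less RNA per cell cannot be told apart.

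With 131I, more of the interferon response genes lay above saline than below it in every tissue when the 3 injection times were averaged, while few single probes passed the test. The median log2 fold-change (131I over saline) over their probes was 0.17 in the thyroid, 0.21 in the spleen, 0.30 in the lungs, 0.32 in the liver, 0.49 in the kidney cortex and 0.30 in the kidney medulla. Over all probes tested, the medians lay between -0.024 and 0.009. With salivary gland and skeletal muscle marker means as covariates, the thyroid median was 0.08 over the 3 times and 0.15 at 12:00. With uncorrected background the medians were 0.08, 0.13, 0.15, 0.18, 0.28 and 0.18 in the same order of tissues. Higher with 131I were 33 of 43 member probes in the thyroid, 45 of 50 in the spleen, 46 of 49 in the lungs, 42 of 44 in the liver, 42 of 45 in the cortex and 40 of 46 in the medulla. A probe was called at a limma adjusted p (Benjamini-Hochberg over all probes tested) under 0.01 with a change of 1.5-fold or more. By this rule a single probe of the 38 genes was called over the 3 times, *Ifih1* in the medulla, beside 2.79% of all probes in the medulla, 0.147% in the liver and 0% in the thyroid, spleen, lungs and cortex.

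At an unadjusted p under 0.05 over the 3 times, probes of the interferon response genes were higher with 131I more often than all probes were. In the cortex 28 of 45 were higher, beside 4.75% of all probes, and none was lower, beside 5.18%. In the lungs 22 of 49 were higher (2.51% of all) and none lower (1.19%). In the medulla 17 of 46 were higher (13.7% of all) and 1 was lower (14.5%). In the liver 14 of 44 were higher (5.69% of all) and none lower (6%). In the thyroid 11 of 43 were higher (5.69% of all) and none lower (5.67%). In the spleen 9 of 50 were higher (0.796% of all) and none lower (1.65%). These probes vary together between mice, so that they do not count as separate observations.

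By time of injection, the medians of the log2 fold-change were highest at 9:00 in both parts of the kidney (0.67 in the cortex and 0.64 in the medulla). In the cortex the medians at 12:00 and 15:00 were 0.42 and 0.32, and in the medulla 0.07 and 0.14. In the liver they were 0.15, 0.46 and 0.36 in the order of injection, in the lungs 0.31, 0.30 and 0.22, in the thyroid 0.12, 0.31 and 0.26, and in the spleen 0.32, -0.06 and 0.43. The spleen of 131I 12:00 replicate 1, with kidney markers, had the lowest mean of these genes among all spleens, and without it the spleen median was 0.17 at 12:00 and 0.28 over the 3 times. Without the lungs of saline 9:00 replicate 4, the lung median was 0.20 at 9:00 and 0.24 over the 3 times. The counts over the 3 times at an unadjusted p under 0.05 were then 13 of 50 in the spleen (1.5% of all probes) and 19 of 49 in the lungs (2.28%). Single samples also turned the sign of small medians. The thyroid median at 9:00 was -0.07 without saline replicate 3, and the medulla median at 15:00 was -0.05 without 131I replicate 3. The medulla median at 12:00 was between -0.04 and 0.24 when single samples were left out, and below 0 without 131I replicates 1 and 4 or saline replicate 2.

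The shares of all probes called give the background at each time. At 9:00 the thyroid had 12.3% of all probes called, and the spleen, lungs, liver, cortex and medulla 0%. At 12:00 the medulla had 4.25%, the liver 1.45%, the cortex 0.141%, and the thyroid, spleen and lungs 0%. At 15:00 the liver had 0.0259%, and the other 5 tissues 0%. Among the interferon response genes, *Trim25* in the medulla at 12:00 was the only probe called in these 18 comparisons, 1 of 46 in that one.

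At an unadjusted p under 0.05, the probes higher with 131I at 9:00 numbered 26 of 46 in the medulla (9.22% of all probes), 20 of 45 in the cortex (2%), 13 of 49 in the lungs (4.88%), 6 of 43 in the thyroid (21.7%), 2 of 50 in the spleen (1.87%) and 0 of 44 in the liver (2.91%). At 12:00 they numbered 12 in the liver (6.75% of all), 4 in the medulla (14%), 3 in the lungs (1.14%), 2 in the cortex (4.5%), 2 in the thyroid (1.05%) and 1 in the spleen (1.86%). At 15:00 they numbered 7 in the thyroid (4.74% of all), 6 in the liver (6.12%), 5 in the spleen (1.28%), 5 in the lungs (1.11%), 5 in the cortex (3.69%) and 4 in the medulla (3.28%). Probes lower with 131I at this level were found in 3 groups, with 8 in the thyroid at 9:00 (19% of all), 2 in the medulla at 12:00 (15.2%) and 4 in the medulla at 15:00 (2.57%). The kidney at 9:00 thus had the highest shares, whereas the thyroid and liver at 9:00 and the medulla at 12:00 had shares below those of all probes. In the cortex and the spleen at 12:00 the shares were near those of all probes.

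**Figure D1:**
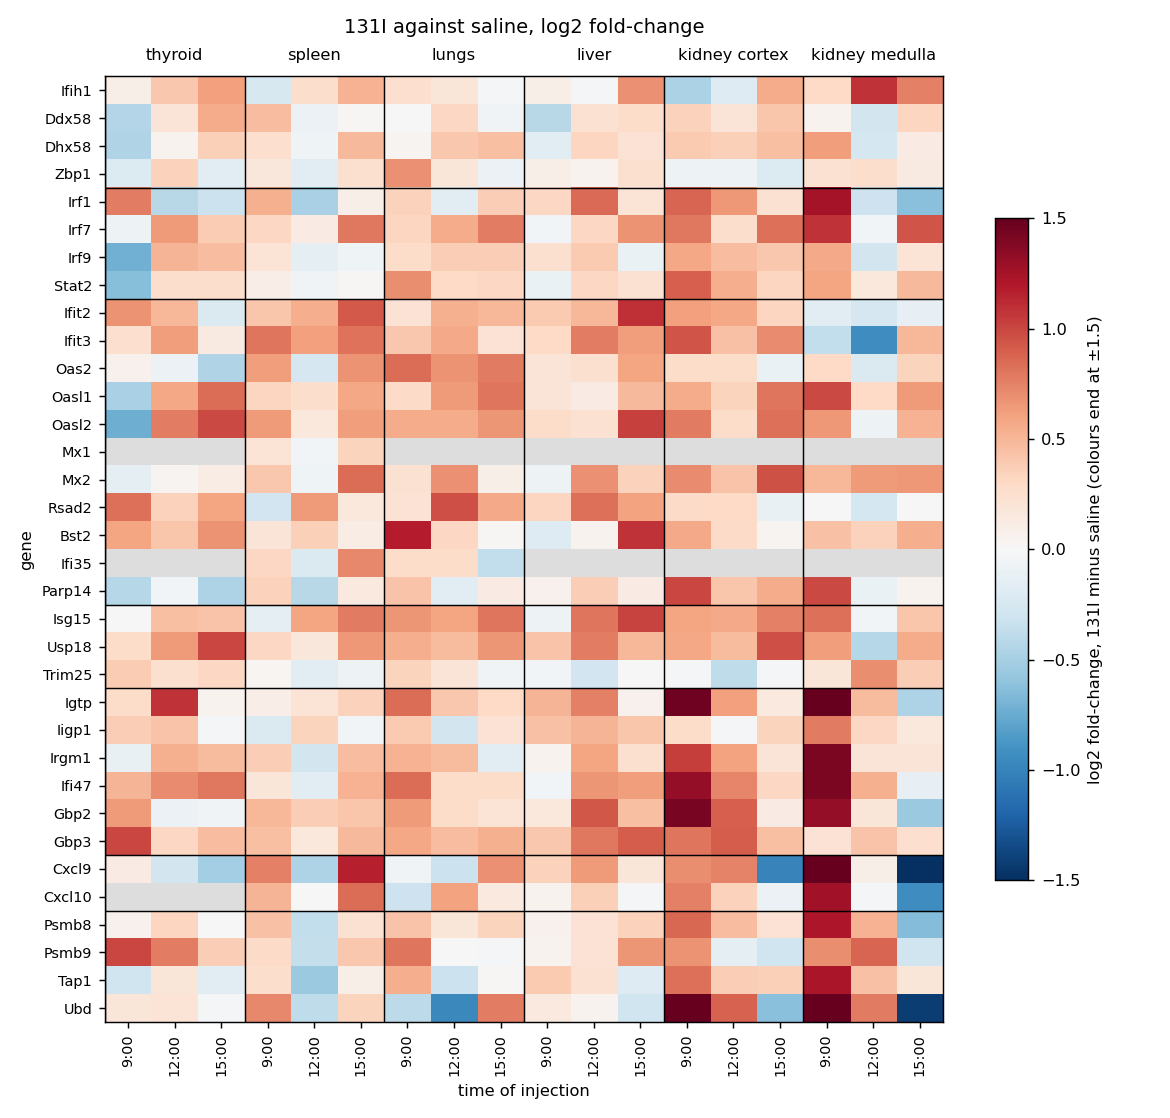
Log2 fold-change of 131I over saline for each tested interferon response gene (rows, ordered by role, with lines between roles) in 6 tissues at 3 injection times (columns); for genes with several probes the one with the smallest p in the comparison is drawn, and grey marks genes not tested in a tissue. Red dominates in both kidney parts at 9:00, where the medians over all member probes were 0.67 and 0.64.

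Among the nucleic acid sensors, *Ifih1*, which encodes the sensor of long double-stranded RNA, rose in the medulla with 131I. At 9:00 its log2 level was 6.76, 6.49, 6.36 and 6.17 in 131I mice, against 6.21, 5.80 and 6.42 in saline mice, and the groups overlapped. At 12:00 it was 7.37, 6.45, 6.91 and 6.52 in 131I mice, against 5.42, 6.17 and 5.59 in saline mice, with all 131I samples above. At 15:00 it was 6.89, 6.51, 7.76 and 6.95 in 131I mice, against 6.20, 5.94 and 6.69 in saline mice, and the groups overlapped at the lowest 131I sample. Over the 3 times the log2 fold-change was 0.71 (SE 0.16, limma adjusted p = 0.00487). In the other 5 tissues its log2 fold-change over the 3 times was between -0.04 and 0.37, with no adjusted p below 0.417. *Ddx58* (RIG-I), *Dhx58* (LGP2) and *Zbp1*, a sensor of Z-form nucleic acids, had medians over tissues of 0.09, 0.20 and 0.10. *Ifih1* in the medulla lost its call without 131I 9:00 replicate 1, saline 9:00 replicate 2, saline 12:00 replicates 1 and 3, or saline 15:00 replicates 1 and 2, with fold-changes of 0.65 to 0.70 (adjusted p 0.0101 to 0.0154).

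*Trim25*, a ubiquitin and ISG15 ligase that activates RIG-I, rose in the medulla at 12:00. Its log2 level was 6.82, 6.94, 6.90 and 7.10 in 131I mice, against 5.95, 6.54 and 6.22 in saline mice. All 131I samples lay above all saline samples. The log2 fold-change was 0.70 (SE 0.16, limma adjusted p = 0.00753), or 1.62-fold. Over the 3 times it was 0.42 (SE 0.09, adjusted p = 0.00524), which is under 1.5-fold. At 9:00 the levels were 6.61, 6.88, 6.60 and 6.54 in 131I mice, against 6.78, 6.29 and 6.37 in saline mice, and at 15:00 they were 6.91, 6.90, 6.54 and 6.54 in 131I mice, against 6.22, 6.40 and 6.43 in saline mice. In the thyroid the value over the 3 times was 0.31, and it was -0.07 in the spleen, 0.16 in the lungs, -0.11 in the liver and -0.14 in the cortex. Leaving out any of the 7 samples at 12:00 but saline replicate 2 ended the call, with fold-changes of 0.56 to 0.74 (adjusted p 0.012 to 0.0501).

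Both medulla calls stood beside a difference in the tissue itself. The papilla and urothelium marker mean of the medulla was 5.45 (4.92 to 6.02) in 131I mice and 8.50 (8.02 to 9.13) in saline mice at 12:00. At 9:00 the mean was 6.36 (5.44 to 8.07) with 131I and 8.61 (8.26 to 9.15) with saline, and at 15:00 it was 6.82 (5.30 to 8.18) and 7.82 (7.29 to 8.35). All 4 tested probes of these markers were called lower over the 3 times, and their median was -2.61 on the log2 scale. With the proximal tubule and papilla marker means as covariates, *Trim25* had an adjusted p of 0.577 and *Ifih1* of 0.757, and no member was called. The papilla marker ranges of 131I and saline mice did not overlap at 9:00 or 12:00. A fit with this covariate can therefore hardly separate it from treatment, and a loss of calls is likely for that reason alone. The part of tissue makeup in both calls was not tested. With these covariates, the member probes higher at an unadjusted p under 0.05 numbered 26 of 46 at 9:00 (4.01% of all probes), 2 at 12:00 (4.18%), 2 at 15:00 (1.69%) and 13 over the 3 times (2.86%), beside 26, 4, 4 and 17 without them. The medians with covariates were 0.94, 0.42, 0.22 and 0.46.

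Of the other genes of ISG15 conjugation, *Isg15*, a ubiquitin-like protein joined to other proteins, and *Usp18*, which removes it and restrains the type I receptor, had positive differences in every tissue. *Isg15* had log2 fold-changes over the 3 times between 0.29 and 0.69, with an unadjusted p under 0.05 in 4 of 6 tissues. *Usp18* had the smallest p of all members in the cortex and in the lungs. In the cortex its log2 level at 9:00 was 8.14, 8.71, 7.82 and 8.78 in 131I mice, against 7.57, 8.35, 7.41 and 7.52 in saline mice. At 12:00 it was 8.07, 7.56, 8.55 and 8.08 in 131I mice, against 7.45, 7.25 and 7.98 in saline mice. At 15:00 it was 8.09, 8.09, 9.47 and 8.57 in 131I mice, against 8.24, 7.25 and 7.27 in saline mice. The groups overlapped at each time, and the log2 fold-change of *Usp18* over the 3 times was 0.71 (SE 0.19, limma adjusted p = 0.237).

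In the lungs *Usp18* had 10.22, 10.47, 9.77 and 10.28 in 131I mice, against 9.64, 10.03, 9.86 and 9.04 in saline mice at 9:00. At 12:00 it had 10.08, 10.18, 10.74 and 9.85 in 131I mice, against 9.45, 10.01 and 10.05 in saline mice. At 15:00 it had 10.20, 9.76, 10.81 and 10.64 in 131I mice, against 10.04, 9.60 and 9.45 in saline mice. The log2 fold-change was 0.53 (SE 0.15, adjusted p = 0.999), and the groups overlapped at each time. The lowest saline value, 9.04 at 9:00, is of replicate 4, the lungs with kidney markers. Leaving out single samples gave fold-changes of 0.46 to 0.59. The other probes of *Usp18* were also higher in the cortex (0.54 and 0.38) and in the lungs (0.40 and 0.33).

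Among the antiviral effectors, *Ifit2*, a tetratricopeptide protein that limits translation of viral RNA, had the smallest p of all members in the spleen and in the liver. In the spleen its log2 level was 8.62, 8.75, 8.28 and 8.85 in 131I mice at 9:00, against 8.51, 8.82, 7.51 and 7.98 in saline mice. At 12:00 it was 8.57, 8.11, 8.10 and 8.27 in 131I mice, against 7.59, 7.49 and 8.06 in saline mice. At 15:00 it was 7.91, 8.35, 8.44 and 8.47 in 131I mice, against 7.71, 7.27 and 7.13 in saline mice. All 131I spleens were above the saline spleens at 12:00 and at 15:00, whereas the groups overlapped at 9:00. The 8.57 at 12:00, the highest of its group, is of replicate 1, the spleen with kidney markers. The part of kidney RNA in this value was not tested. The other 131I spleens at 12:00, at 8.11, 8.10 and 8.27, were also above saline. Leaving out single samples gave *Ifit2* fold-changes over the 3 times of 0.55 to 0.70 in the spleen. The log2 fold-change of *Ifit2* in the spleen over the 3 times was 0.63 (SE 0.14, limma adjusted p = 1).

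In the liver *Ifit2* had 6.80, 6.85, 6.96 and 7.08 in 131I mice, against 6.90, 7.02, 5.77 and 6.24 in saline mice at 9:00. At 12:00 it had 6.79, 6.63, 7.03 and 6.61 in 131I mice, against 6.42, 5.81 and 7.01 in saline mice. At 15:00 it had 6.52, 6.42, 7.38 and 7.49 in 131I mice, against 5.98, 5.86 and 5.74 in saline mice. The groups stood apart at 15:00 only, and the log2 fold-change of *Ifit2* over the 3 times was 0.63 (SE 0.17, adjusted p = 0.0813). The second *Ifit2* probe had 0.58 in the spleen and 0.55 in the liver. In the medulla both *Ifit2* probes were at -0.18 and -0.05. The related *Ifit3* was at 0.31 to 0.66 in the probe with the smallest p of the other tissues but the thyroid, whereas in the medulla 2 of its 3 probes were negative, the largest at -0.42 (SE 0.16, adjusted p = 0.0949).

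The other effectors had mostly positive values too. *Oasl1* and *Oasl2*, relatives of the oligoadenylate synthetases, were higher in all 6 tissues, with medians of 0.40 and 0.43 and an unadjusted p under 0.05 in 4 tissues each. *Bst2* (tetherin), which holds budding virus on the cell, and the GTPase *Mx2* were also higher in all 6, with medians of 0.38 and 0.36. *Rsad2* (viperin), an enzyme that makes a chain terminator of viral RNA synthesis, was higher in 5 of 6 with a median of 0.38. *Oas2* and *Parp14* had medians of 0.24 and 0.16. As a group, the effector probes had an unadjusted p under 0.05 and higher values in 8 of 13 in the cortex, 9 of 15 in the lungs, 6 of 16 in the spleen, 6 of 13 in the liver, 5 of 14 in the medulla and 4 of 13 in the thyroid.

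The interferon-inducible GTPases, which act on vacuoles that hold pathogens, were positive in nearly all probes. Higher with 131I were 8 of 8 in the thyroid, 9 of 10 in the spleen, 9 of 10 in the lungs, 8 of 8 in the liver, 9 of 9 in the cortex and 9 of 9 in the medulla. Their medians were 0.37, 0.20, 0.38, 0.45, 0.67 and 0.33 in that order of tissues. *Gbp3*, a guanylate-binding protein, and *Ifi47* were higher in all 6 tissues and had an unadjusted p under 0.05 in 5 each, with medians over tissues of 0.54 each.

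*Igtp*, a GTPase of the same class named after its values were seen, shows the spread between mice at 9:00. In the medulla its log2 level was 11.25, 9.18, 9.90 and 11.69 in 131I mice, against 8.38, 8.85 and 7.65 in saline mice, with all 131I samples above. In the cortex it was 9.43, 11.60, 9.99 and 11.98 in 131I mice, against 8.55, 9.47, 8.04 and 11.08 in saline mice, which overlapped. The log2 fold-change of *Igtp* was 2.21 in the medulla (SE 0.56, limma adjusted p = 0.0408) and 1.46 in the cortex (SE 0.58, adjusted p = 0.999). At 12:00 and 15:00 it was 0.47 and -0.46 in the medulla, and 0.62 and 0.14 in the cortex.

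The transcription factors *Irf7*, the master regulator of type I interferon production, *Irf9*, *Stat2* and *Irf1* had a positive median in each tissue, from 0.03 in the spleen to 0.49 in the cortex. In the cortex 7 of their 8 probes had an unadjusted p under 0.05. *Irf7* had the largest value in the medulla, 0.66 over the 3 times (SE 0.17, limma adjusted p = 0.0145). At 9:00 its log2 level there was 7.42, 7.30, 6.61 and 7.31 in 131I mice, against 6.07, 6.44 and 5.72 in saline mice, so that all 131I samples were above. At 12:00 *Irf7* had 6.88, 5.79, 6.61 and 6.49 in 131I mice, against 6.31, 6.28 and 6.87 in saline mice, and at 15:00 it had 6.53, 6.76, 7.92 and 7.19, against 6.10, 5.81 and 6.58. *Irf7* too was named after its values were seen.

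The chemokines *Cxcl9* and *Cxcl10*, which attract T cells through CXCR3, had no unadjusted p under 0.05 over the 3 times in any tissue. In the medulla *Cxcl9* had opposite signs at the first and last times, with 1.73 at 9:00 (SE 0.57, limma adjusted p = 0.095) and -1.55 at 15:00 (SE 0.57, adjusted p = 0.782). All 131I samples were above saline at 9:00, and all were below at 15:00. *Cxcl9* was named here after its values were seen.

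Among the genes of antigen processing, the immunoproteasome subunits *Psmb8* and *Psmb9* were higher in all 6 tissues, with medians of 0.26 and 0.29, and the peptide transporter *Tap1* in 4. *Ubd*, which encodes the ubiquitin-like FAT10, had the widest range between samples in the lungs, cortex and medulla. In the medulla at 9:00 its log2 level was 9.68, 7.55, 7.73 and 10.12 in 131I mice, against 6.46, 6.45 and 6.05 in saline mice. At 12:00 *Ubd* had 9.09, 5.93, 8.73 and 9.97 in 131I mice, against 6.81, 8.25 and 7.90 in saline mice. At 15:00 it had 7.62, 6.67, 8.01 and 7.60 in 131I mice, against 7.35, 7.94 and 11.42 in saline mice. The groups stood apart at 9:00 only, and the *Ubd* fold-changes were 2.45 (SE 0.85, limma adjusted p = 0.12), 0.78 and -1.43 on the log2 scale.

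**Figure D2:**
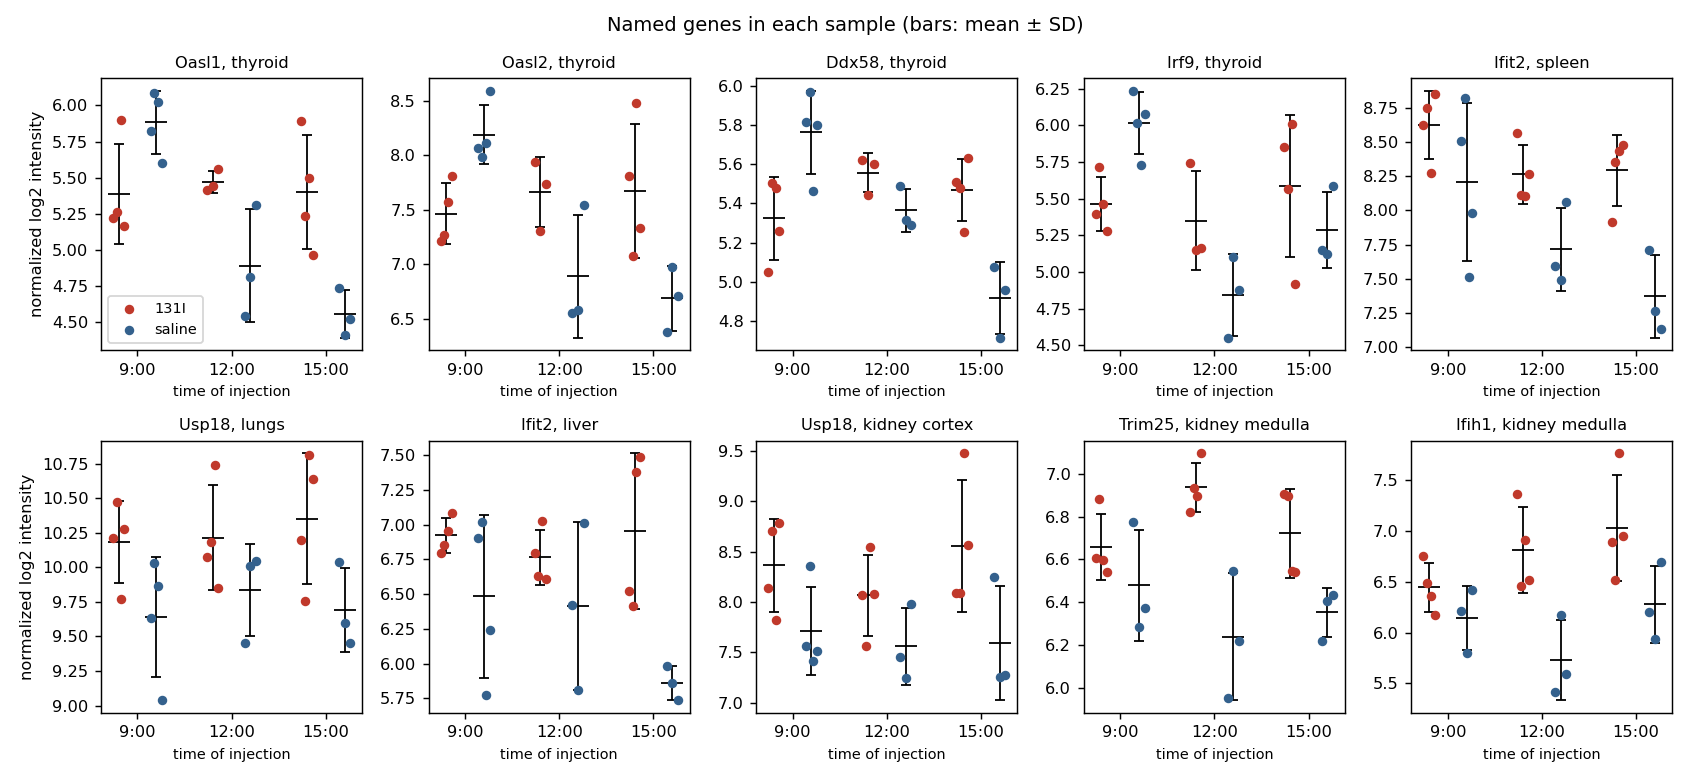
Normalized log2 intensity of the genes given with every sample (one gene and tissue per panel) by time of injection, with 131I in red left of saline in blue; points are samples, and black marks are mean ± SD of 3 or 4 samples. *Trim25* at 12:00 shows all 131I samples above saline, whereas the *Usp18* groups overlap at each time.

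Of the 31 genes tested in every tissue, 17 were higher with 131I in all 6 tissues over the 3 times, by the probe with the smallest p. Of the same 31 genes, 16 had an unadjusted p under 0.05 in at least 3 tissues, in either direction, and among these *Ifit2*, *Ifit3*, *Rsad2* and *Stat2* were higher in 5 tissues only. The tissues share mice, so that these counts are a description. The same counts were not made over all genes, so these have no background share beside them. A gene with several probes also had more chances to be counted at this p.

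The other genes of the interferon pathway, 37 ligands, receptors, kinases, factors and inhibitors of which 34 had a probe, had medians near 0. Over the 3 times none of their probes was called in any tissue. At an unadjusted p under 0.05, 4 of 23 were higher (13.7% of all probes) and 1 was lower (14.5%) in the medulla, 2 of 23 were higher in the cortex (4.75%), 1 of 23 in the thyroid (5.69%), and 0 of 30, 27 and 22 in the spleen (0.796%), lungs (2.51%) and liver (5.69%). The medulla share was near that of all probes. The 4 higher probes were of the interferon gamma receptor chain *Ifngr2*, the factor *Irf8*, the kinase *Jak1* and the ligand *Ifna6*, and the lower one was of the inhibitor *Pias1*. *Ifngr2* had 0.33 (SE 0.09, limma adjusted p = 0.0136) and *Pias1* -0.25 (SE 0.06, adjusted p = 0.013). The median over the pathway probes was between -0.04 and 0.09 in all 6 tissues. At 9:00 in the thyroid, both probes of the interferon lambda receptor chain *Ifnlr1* fell by 1.93 and 1.02 on the log2 scale (adjusted p = 0.00189 and 0.00234), and *Irf3*, the factor that first turns on type I interferon genes, by 1.17 (adjusted p = 0.00316). In the same comparison 3 of 23 pathway probes were called, beside 12.3% of all probes, so that their share was near that of all probes. The thyroid samples also differed in tissue makeup there, with a median log2 fold-change of -10.1 for salivary gland markers and 5.47 for skeletal muscle markers. The part of tissue makeup in the *Ifnlr1* and *Irf3* differences was not tested.

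Differences of the response between the 3 times were tested directly with an F test at an adjusted p under 0.01. No interferon response gene was called in any tissue, beside 0% of all probes in the thyroid, spleen, lungs and medulla, 0.545% in the liver and 0.00783% in the cortex. At an unadjusted p under 0.05 limma had 11 of 46 member probes in the medulla (14.8% of all), 8 of 43 in the thyroid (34.6%), 2 of 44 in the liver (14.5%), 1 of 45 in the cortex (5.94%), and 0 in the spleen (4.69%) and the lungs (3.32%). The share of the interferon response genes was below that of all probes in each tissue except the medulla.

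In the thyroid of saline mice, 4 of the 43 probes of interferon response genes were called with the time of injection, beside 8.42% of all probes, so that their share was near that of all probes. These 4 had their highest levels at 9:00. The adjusted p values given for them come from a limma F test on the measured values over all times. They do not belong to a single pair of times or to a bound. *Oasl2* had log2 levels of 8.07, 7.99, 8.11 and 8.59 at 9:00, 6.55, 6.58 and 7.54 at 12:00, and 6.38, 6.98 and 6.71 at 15:00. All 9:00 samples were above those of the later times. *Oasl2* was 2.83-fold lower at 15:00 than at 9:00 (adjusted p over all times = 0.00585, limma F test). *Oasl1* had 5.82, 6.08, 6.02 and 5.60 at 9:00, 4.54, 4.81 and 5.31 at 12:00, and 4.73, 4.41 and 4.52 at 15:00. At 15:00 *Oasl1* was not well above background on any array, and it was at least 1.60-fold lower than at 9:00 (adjusted p = 0.00459). Its second probe had -0.57 and was not called.

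The sensor *Ddx58* had 5.82, 5.97, 5.46 and 5.80 at 9:00, 5.49, 5.32 and 5.29 at 12:00, and 5.08, 4.72 and 4.96 at 15:00. It was not well above background at 15:00 and was at least 1.47-fold lower than at 9:00 (adjusted p over all times = 0.00642, limma F test). *Irf9* had 6.24, 6.02, 5.73 and 6.08 at 9:00, 4.55, 5.10 and 4.87 at 12:00, and 5.15, 5.12 and 5.59 at 15:00. At 12:00, where it was not well above background, *Irf9* was at least 1.75-fold lower than at 9:00, and its other probe had -1.11. The adjusted p values over all times were 0.0073 and 0.0106 by the same F test. In such bounds the dim group's mean takes, per array, the higher of the probe's own value and the lowest signal among probes well above background. In 131I mice of all injection times the same probes ranged from 7.08 to 8.48 for *Oasl2*, 4.97 to 5.90 for *Oasl1*, 5.05 to 5.63 for *Ddx58* and 4.92 to 6.01 for *Irf9*, without a call between times.

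The 4 genes of the thyroid moved beside a large change in tissue makeup. The salivary gland marker mean of saline thyroids was 12.9 (12.8 to 13.1) at 9:00, 7.21 (4.33 to 12.6) at 12:00 and 5.85 (4.37 to 8.75) at 15:00. With the salivary gland and skeletal muscle marker means as covariates no member was called, and the adjusted p values of the 4 genes were 0.202 to 0.374. All salivary gland marker means at 9:00 lay above those of the later times, so that this fit can hardly separate them from the time of day. The part of tissue makeup in these calls was not tested. Without any one of the saline samples of 9:00 or 15:00, or of 12:00 replicates 1 and 2, 0 or 1 of the 4 probes was called. In the comparison of 131I with saline, *Oasl1* at 15:00 had the thyroid value named for its p, with 5.89, 5.23, 5.49 and 4.97 in 131I mice, against 4.73, 4.41 and 4.52 in saline mice. The saline group was not well above background, so *Oasl1* was at least 1.14-fold higher with 131I (measured log2 fold-change 0.84, SE 0.23, limma adjusted p = 0.264).

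In the other tissues no interferon response gene was called with the time of day in saline mice, beside 4.52% of all probes in the liver, 0.243% in the cortex, 0.106% in the medulla, 0.0142% in the lungs and 0.00758% in the spleen. At an unadjusted p under 0.05, limma had 13 member probes in the thyroid (40.7% of all), 8 in the medulla (11.3%), 7 in the liver (23.1%), 3 in the cortex (16.6%), 2 in the spleen (6.45%) and 0 in the lungs (8.09%). In 131I mice none was called, beside 0.631% of all probes in the liver, 0.0906% in the medulla, 0.0157% in the cortex, 0.00712% in the lungs, and 0% in the thyroid and spleen. At an unadjusted p under 0.05 there were 4 in the spleen (5.01% of all), 4 in the medulla (11.2%), 3 in the cortex (12.6%), 2 in the thyroid (14%), and 0 in the lungs (2.26%) and the liver (13.5%).

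In the liver, markers of macrophages and neutrophils stood higher over the 3 times beside the interferon response genes. Of 8 macrophage marker probes, 5 were higher at an unadjusted p under 0.05 over all times, and the median over the 8 was 0.46 on the log2 scale. Their mean level was 7.62 (7.42 to 8.01) in 131I mice and 7.60 (6.92 to 8.12) in saline mice at 9:00, 7.42 (7.26 to 7.60) and 7.12 (6.68 to 7.65) at 12:00, and 7.51 (7.17 to 7.88) and 6.69 (6.22 to 7.17) at 15:00. The 5 neutrophil marker probes of the liver had a median of 0.68 over all times (1 with an unadjusted p under 0.05). Their median was 0.55 at 9:00 and -0.17 at 12:00 (0 with an unadjusted p under 0.05 at either), and 1.53 at 15:00 (3). At 12:00 the median of the interferon response genes in the liver was at its highest, 0.46. Within groups, the mean of the interferon response genes in the liver correlated at 0.75 with the macrophage and 0.58 with the neutrophil marker mean, over 22 samples. The correlation was 0.56 with the T and NK cell, 0.28 with the B cell and -0.08 with the plasmacytoid dendritic cell markers. The part of any of these cell types in the liver result was not tested. In the cortex at 9:00, where the median of the interferon response genes was 0.67, 2 of 4 macrophage marker probes (median 0.43) and 2 of 4 T and NK cell marker probes (median 0.52) were higher with 131I at an unadjusted p under 0.05. Over the 3 times none of the 4 macrophage, 4 T and NK cell, 1 B cell, 1 plasmacytoid dendritic cell or 3 neutrophil marker probes tested in the cortex had an unadjusted p under 0.05. Within groups, the mean of the interferon response genes in the cortex correlated at 0.49 with the macrophage, 0.51 with the T and NK cell and 0.54 with the neutrophil marker mean, over 22 samples that share arrays and normalization. It correlated at 0.27 with the B cell and -0.04 with the plasmacytoid dendritic cell marker. Among markers of other tissues the values were 0.59 for thyroid follicular cells, 0.41 for liver and -0.23 to 0.23 for the rest. The part of any cell type in the cortex result was not tested.

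**Figure D3:**
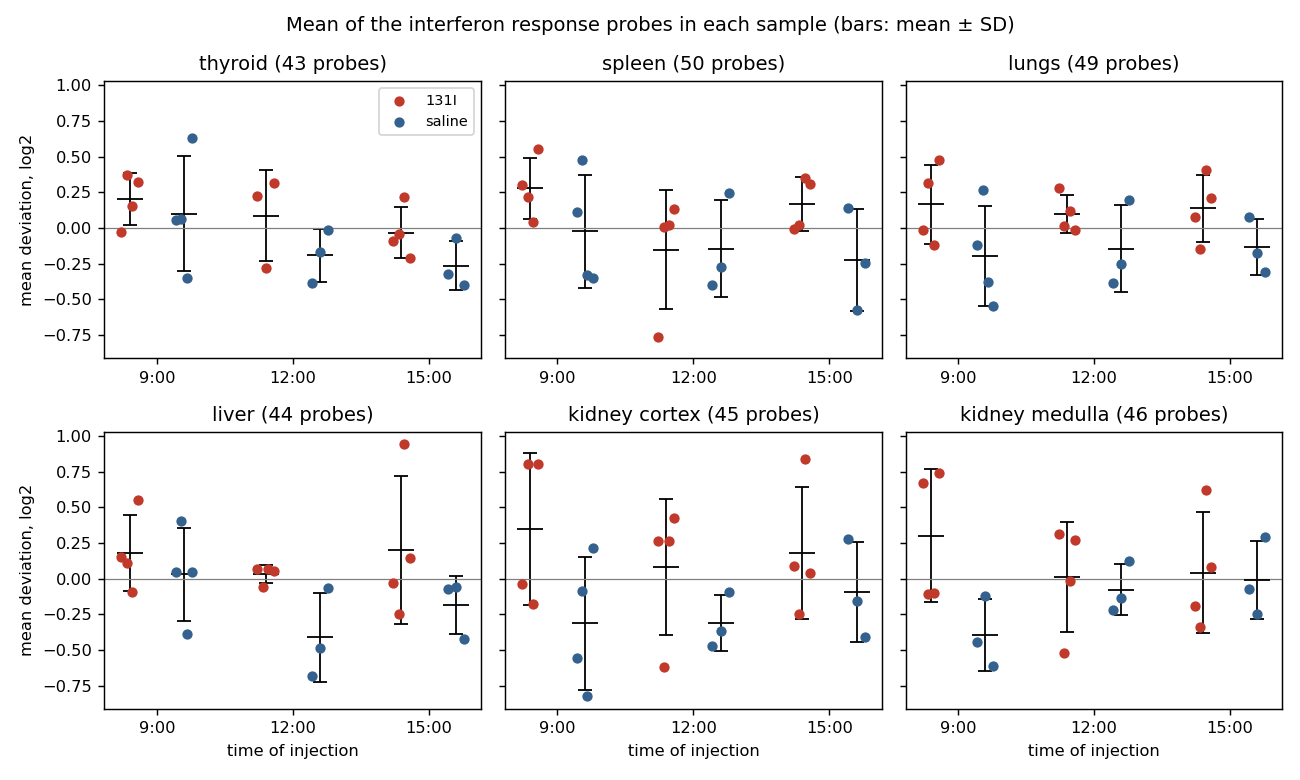
Mean log2 deviation of the tested interferon response probes from their tissue means, one panel per tissue, by time of injection, with 131I in red left of saline in blue; points are samples, and black marks are mean ± SD of 3 or 4 samples. In the cortex at 9:00 the 131I samples reach 0.81 and the saline samples lie between -0.82 and 0.22, and the groups overlap.

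The interferon response genes varied together between mice of the same group. Within groups, the median correlation between pairs of their probes was 0.29 in the thyroid, 0.43 in the spleen, 0.34 in the lungs, 0.43 in the liver, 0.57 in the cortex and 0.56 in the medulla, over 21 or 22 samples each. The correlated probes share the arrays and their normalization. The median correlation of a member with the mean of the others was 0.58 to 0.77, and between -0.03 and 0.08 for all probes. Most like the others were *Irf1* in the thyroid (0.94), *Dhx58* in the spleen (0.88), *Irf7* in the lungs (0.92), *Usp18* in the liver (0.92), *Parp14* in the cortex (0.96) and *Ifi47* in the medulla (0.93). Least like the others were *Oasl1* in the thyroid (-0.56), *Trim25* in the spleen (-0.03) and medulla (-0.34), and *Gbp2* in the lungs (-0.095). In the liver the lowest was *Ubd* (0.18), and in the cortex *Zbp1* (0.03). Of the probes called in the medulla, *Trim25* thus had a negative value, and *Ifih1* had 0.44. The probes called with the time of day in saline thyroids had -0.07 (*Oasl1*), 0.14 (*Ddx58*), 0.37 (*Irf9*) and 0.60 (*Oasl2*). The median SD within groups was 0.36 to 0.48 on the log2 scale for member probes and 0.20 to 0.27 for all probes.

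Samples of the same number also varied together across tissues, although the labels do not tie a number to an animal. For the 15 tissue pairs the correlation of the member means within groups was -0.06 to 0.78, with a median of 0.54, over 20 to 22 samples. The 131I samples numbered 4 at 9:00 were above the tissue mean in all 6 tissues, by 0.32 to 0.81, and those numbered 3 at 15:00 by 0.21 to 0.94. No other number was above in all of its tissues. No 131I number was below the mean in all of its tissues, whereas 4 of the 10 saline numbers were.

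The average over tissues was -0.24 to 0.58 (median 0.11) over the 12 131I numbers and -0.48 to 0.17 (median -0.18) over the 10 saline numbers. Without the 131I samples numbered 4 at 9:00 and 3 at 15:00, the median log2 fold-change over the 3 times was 0.16 in the thyroid, 0.17 in the spleen, 0.23 in the lungs, 0.20 in the liver, 0.37 in the cortex and 0.15 in the medulla. The probes higher at an unadjusted p under 0.05 then numbered 10 of 43 in the thyroid (4.84% of all probes), 4 of 50 in the spleen (0.812%), 13 of 49 in the lungs (1.62%), 7 of 44 in the liver (4.79%), 14 of 45 in the cortex (4.13%) and 10 of 46 in the medulla (13.8%). In the medulla 3 probes were then lower (14.5% of all). These samples were chosen after their values were seen.

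**Figure D4:**
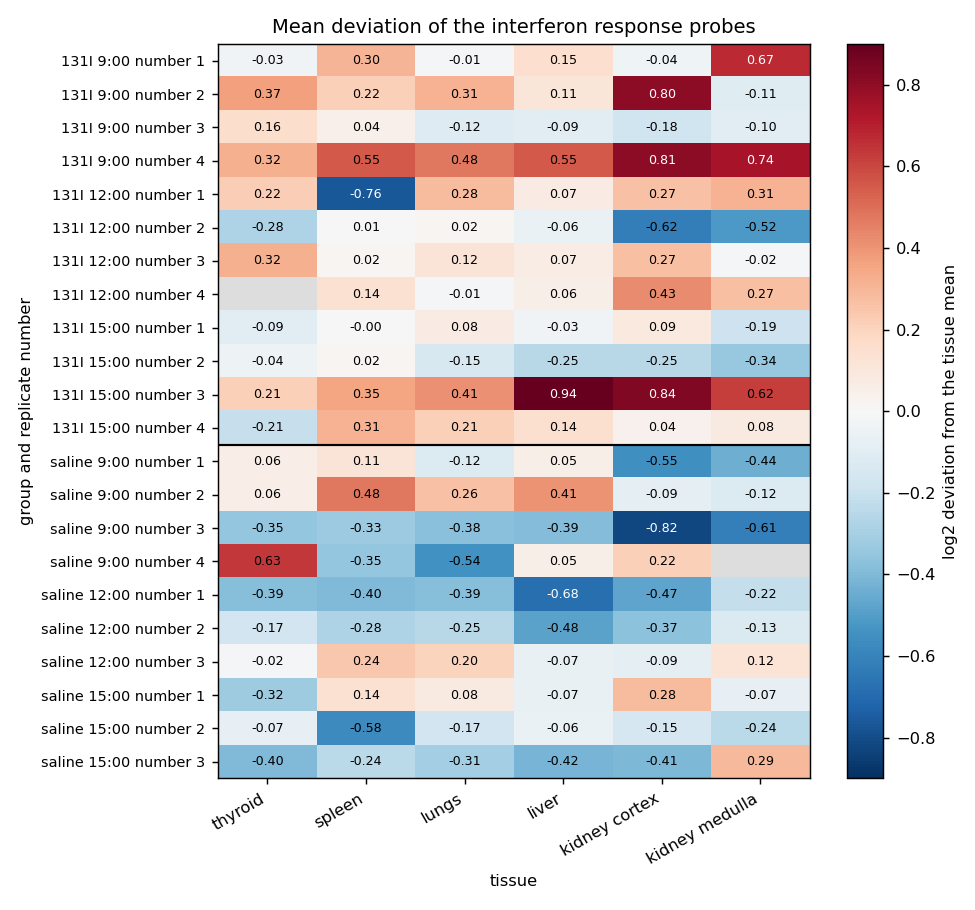
Mean log2 deviation of the interferon response probes from the tissue mean (colour and printed value) for each group and replicate number (rows, 131I above saline) in 6 tissues (columns); grey marks a tissue with no sample. The 131I rows numbered 4 at 9:00 and 3 at 15:00 are positive throughout, from 0.21 to 0.94.

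Where the genes are expressed without 131I was compared in saline mice, each tissue against the mean of the other 5, on values normalized over all arrays. Of 51 member probes tested, 32 were higher in the spleen (25.5% of all probes) and 0 were lower (24.9%). In the lungs 17 were higher (19.3%) and 4 lower (20.3%), and in the liver 9 were higher (16.5%) and 12 lower (24.4%). In the medulla 6 were higher (13.5%) and 21 lower (13.3%), in the thyroid 1 higher (19.1%) and 23 lower (21.4%), and in the cortex 1 higher (13.7%) and 18 lower (14.9%). The median difference was 0.72 on the log2 scale in the spleen and at most 0.14 in the other tissues.

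In the spleen the largest differences were in *Rsad2*, *Ubd* and the chemokine *Cxcl9*. *Rsad2* had log2 levels of 10.1 to 13.5 in the 10 spleens (median 12.6), and medians of 9.17 in the medulla, 8.72 in the cortex, 8.50 in the lungs, 7.89 in the thyroid and 7.51 in the liver. All spleens were above all samples of the other tissues, and the difference was 3.82 (SE 0.21, limma adjusted p = 4.2e-22). *Ubd* differed by 3.33 (SE 0.39) and *Cxcl9* by 3.19 (SE 0.34), with adjusted p = 1.36e-10 and 1.01e-11. The immunoproteasome genes *Psmb8* and *Psmb9* and *Tap1* were at 1.96, 2.43 and 2.41 in the spleen, named after their values were seen.

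In the liver *Bst2*, *Mx2* and *Ifih1* were the highest relative to the other tissues. *Bst2* had 8.80 to 10.3 in 10 livers (median 9.51), and a median of 8.29 in the spleen, the next highest tissue, whose samples reached 9.21 and thus overlapped with the liver. The differences were 1.98 for *Bst2* (SE 0.18), 1.65 for *Mx2* (SE 0.14) and 1.23 for *Ifih1* (SE 0.17), with limma adjusted p of 4.77e-14, 4.02e-15 and 7.04e-09. By contrast *Ubd* was at -2.15, *Rsad2* at -1.73 and *Ifit2* at -1.22 or -1.03 in the liver.

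In the lungs *Irf1* (1.53, SE 0.15), *Oasl2* (1.49, SE 0.18) and *Ifit3* (1.43, SE 0.16) led, with limma adjusted p of 4.48e-13, 1.73e-10 and 1.99e-11. *Oasl2* had a median of 10.1 in the lungs, 8.90 in the spleen and 8.02 to 8.58 in the other 4 tissues. In the medulla *Ifit2* (1.5, SE 0.17), *Ifit3* (1.14, SE 0.17) and *Gbp3* (0.84, SE 0.23) led, with adjusted p of 1.19e-10, 2.28e-07 and 0.00158. *Ifit2* had a median of 9.23 in the medulla and 8.57 in the lungs, the next highest. The medulla had most other members below the mean of the tissues, among them *Tap1* at -1.33.

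The thyroid had a single probe higher, *Usp18* at 0.72 (SE 0.17, limma adjusted p = 0.000165). The other probes of *Usp18* were at 0.49 and 0.38 there. *Ifi47* was lowest in the thyroid, at -2.04. As given above, the saline thyroid samples carried salivary gland markers at levels that differed between times, and follicular cell markers near background. The thyroid values are thus those of mixed samples and do not place a gene in thyroid cells. The cortex had *Cxcl10* higher by 0.65 (SE 0.20, adjusted p = 0.00427), with a median of 6.24 in the cortex and 6.67 in the spleen. *Cxcl10* was not well above background on any saline thyroid array, so it was at least 1.36-fold higher in the cortex than in the mean of the others. Without cortex saline 9:00 replicate 4, 12:00 replicates 1 and 3, or 15:00 replicates 1 and 2, *Cxcl10* was no longer called (0.59 to 0.64). *Gbp3* in the medulla was lost without saline 15:00 replicate 3 (0.62).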

How the data were processed

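Total RNA of 6 tissues was hybridised to Illumina MouseRef-8 bead arrays, 136 arrays of 130 samples. The authors deposited background-uncorrected signal intensities with a detection p-value per probe, and a second table of normalized intensities on a linear scale with a floor of 16. The deposited intensities were corrected with limma's nec (normexp from the deposited detection p-values, offset 16), quantile normalized within each tissue and set on the log2 scale, and the repeat arrays were averaged with their sample. Samples were matched to columns by the coded names in the signal table, and each sample's values had the same rank order in the table of normalized intensities. Columns of authors' comparisons were not used.

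Where 3 or more arrays of a tissue had a detection p-value below 0.01, the probe entered the test by limma 3.58.1 in R 4.3.3 (lmFit and eBayes with a mean-variance trend) over the 6 groups of the tissue, and p-values were adjusted (Benjamini-Hochberg) over all probes tested. Calls needed an adjusted p below 0.01 with a change of 1.5-fold or more, or the adjusted p alone in the F test of differences between times. Saline tissues were compared after quantile normalization over all arrays, so their levels are on another scale. The number of arrays limits the precision. By the methods of the study the replicates of a group are tissues of different mice. The members and lists were chosen with earlier results of these data known. Named genes were those called, otherwise the member with the smallest p in a tissue, and the 3 largest called higher per saline tissue. The script was tested on simulated data. Alternatives were other background corrections, scalings, filters, uses of the repeats, a replicate block, thresholds, marker covariates and leaving out each sample.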

Additional observations from a re-analysis of the deposited data

Results flagged for a closer look

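In groups of 4 samples, 5 values stood far from the other samples of their group by Dixon's test, among 22 groups tested for the mean of the interferon response genes and 34 for named genes. Chance alone would mark about 1 in 20 groups. The mean of the interferon response genes in spleen 131I 12:00 replicate 1 was -0.765, against 0.0067 to 0.136 in the other samples of the group, and this spleen carried kidney markers. In liver 131I 12:00 replicate 2 the mean was -0.0582, against 0.0558 to 0.0707 in the others. In kidney cortex 131I 12:00 replicate 2 it was -0.621, against 0.266 to 0.428. *Oasl1* had 5.90 in thyroid 131I 9:00 replicate 3, against 5.17 to 5.26 in the others. *Usp18* had 8.35 in kidney cortex saline 9:00 replicate 2, against 7.41 to 7.57.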

How the results depend on the processing

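No gene named by the rule above changed sign under any alternative in the comparison it was named for. For the genes called with the time of day, the sign followed was that of 15:00 against 9:00. Other fold-changes in the text were not followed through the alternatives, among them those of *Igtp*, *Irf7*, *Cxcl9* and *Ubd* in the medulla. Of the medians, that of the medulla at 12:00 was -0.03 with the replicate block, and the sign changes on leaving out samples are given above for the thyroid at 9:00, the spleen and medulla at 12:00 and the medulla at 15:00, the spleen also reaching 0.20 without saline 12:00 replicate 3. The call of *Trim25* in the medulla at 12:00 (1 probe) became 0 with median scaling, no filter, uncorrected background, the values as normalized by the authors, the repeats left out or counted as replicates, a fit of the compared groups alone, or the marker covariates, 2 with the replicate block, 3 at the looser threshold (adjusted p under 0.05, no fold-change minimum), and 0 to 2 leaving out single samples. The medulla call over the 3 times (1 probe) became 0 with no background correction, the deposited values or the covariates, 5 at the looser threshold, and 0 to 3 leaving out single samples. The 0 calls of the medulla at 9:00 became 1 with repeats counted and 4 at the looser threshold. The 4 calls with the time of day in saline thyroids became 2 with no background correction, median scaling, no filter or the replicate block, 0 with covariates, and 0 to 4 leaving out single samples. The 0 calls in the thyroid became 2 with repeats counted and 5 at the looser threshold at 9:00 (0 to 1 leaving out samples), and 2 and 4 for differences between times (0 to 2). In the liver the 0 calls with the time of day in saline mice became 1 at the looser threshold (0 to 1 leaving out samples). The medulla median at 12:00 moved to 0.42 with covariates. Medians over the 3 times were lower by over 1.5 times with uncorrected background or the authors' normalized values: 0.28 and 0.27 in the cortex, 0.15 and 0.13 in the lungs, 0.18 and 0.19 in the liver, 0.18 and 0.17 in the medulla, and 0.13 and 0.13 in the spleen. At 9:00 they were 0.38 and 0.37 in the cortex and 0.33 and 0.32 in the medulla. The thyroid median over the 3 times was 0.08 with uncorrected background or covariates and 0.31 with median scaling. The cause was not tested.

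In saline tissues, with no background correction and with the deposited values, the probes higher were 0 in the thyroid, 21 in the spleen, 7 in the lungs, 4 in the liver and 0 in the cortex, and those lower were 12 in the thyroid, 1 in the lungs and 8 in the cortex. Lower in the medulla were 8 with no background correction, 9 with the deposited values and 11 with median scaling. With median scaling, 0 were higher in the thyroid, 4 were higher in the cortex and 2 were lower in the lungs. At the looser threshold 4 were higher in the thyroid, 16 in the liver and 5 in the cortex, and 2 were lower in the spleen and 10 in the lungs. Leaving out single samples gave, for probes higher and lower, 1 to 2 and 22 to 25 in the thyroid, 27 to 34 and 0 to 1 in the spleen, 13 to 17 and 1 to 4 in the lungs, 9 to 10 and 10 to 13 in the liver, 0 to 4 and 16 to 21 in the cortex, and 4 to 7 and 19 to 22 in the medulla.

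Replicate numbers are shared between groups. Of 54 pairs of the same number between the treatments, within a tissue and time, 17 correlated over 0.1 (-0.63 to 0.45). The numbers thus do not pair samples of different treatment. These pairs lie within a tissue, so they cannot show whether a number ties tissues of the same mouse. With the replicate block, no call changed beyond those given above. Signals near background limit *Oasl1*, *Ddx58* and *Irf9* in the thyroid.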
